A study of Saccharomyces cerevisiae with 2 samples.

Results

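Vid22 summits inside protein-coding open reading frames are the peaks of the Vid22-13Myc ChIP-seq whose point of highest signal lay within the coding sequence (CDS) of a gene, more than 250 bp from any tRNA gene. Of the 811 peaks in the deposited list, 349 met this rule, and they fell in 313 of the 6002 protein-coding genes of the sacCer3 annotation (5.21% of the genes). The 462 other peaks comprised 168 with a summit within 250 bp of a tRNA gene and 294 with a summit outside every CDS. The members were chosen by the measured position of the summit, so their position in a CDS is not a result, and their fold enrichment, q-value and width come from the same contrast and are given as description only. No cut on enrichment was applied.

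The Vid22-13Myc cells were Saccharomyces cerevisiae of the BY4741 background in which the VID22 gene carried a C-terminal 13Myc tag at its own locus, with HIS3MX6 as the marker. They were compared with the control library, described in the study's methods as a strain with wild-type untagged Vid22, while its label gives no antibody, and the name of each peak calls both libraries immunoprecipitates. Both cultures were pre-grown in YEP and cross-linked with 1% formaldehyde, with no drug or other treatment. The DNA of 2 ChIP experiments was pooled into 1 library per condition, so there was no replicate spread and no test of enrichment across samples was possible. The number of reads behind each value is unknown from the peak list, and every interval below covers counting error over peaks or genes only and treats them as independent, although some share a gene or a neighbouring strong peak.

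Vid22 is a BED-type zinc-finger protein that works with the general regulatory factor Tbf1 and with Env11 at promoters of protein-coding and snoRNA genes, and it binds G-quadruplex (G4) DNA. Tbf1 recognises the TTAGGG repeat of telomeres and related sites in the genome, and the short consensus used here was TAGGG on either strand. A summit in an open reading frame is therefore away from the usual position of such factors, the nucleosome-free region before a gene.

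The reference sequence from 50 bp before to 50 bp after the summit is shown for the 6 members of highest fold enrichment, to let a reader see whether the Tbf1 consensus stands at the summit. The strand shown is the forward strand of the RefSeq reference R64 (sacCer3), and capitals mark TAGGG or its reverse complement.
RPR2, chrIX:382300-382400: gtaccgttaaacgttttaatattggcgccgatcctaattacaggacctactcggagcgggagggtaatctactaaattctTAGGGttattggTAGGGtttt
YER188C-A, chrV:569834-569934: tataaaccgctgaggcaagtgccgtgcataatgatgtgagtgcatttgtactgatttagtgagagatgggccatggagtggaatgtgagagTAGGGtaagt
YPT32, chrVII:94314-94414: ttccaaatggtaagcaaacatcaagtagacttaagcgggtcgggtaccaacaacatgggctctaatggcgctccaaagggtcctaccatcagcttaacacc
AHC2, chrIII:259051-259151: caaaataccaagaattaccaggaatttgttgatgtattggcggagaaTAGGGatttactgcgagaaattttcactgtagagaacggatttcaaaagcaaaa
RPL22B, chrVI:64477-64577: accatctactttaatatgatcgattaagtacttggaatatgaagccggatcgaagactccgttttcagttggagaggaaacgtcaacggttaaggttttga
SPT16, chrVII:101881-101981: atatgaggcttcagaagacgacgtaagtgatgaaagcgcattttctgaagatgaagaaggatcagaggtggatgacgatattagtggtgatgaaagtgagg
The consensus was in 3 of these windows, and in the AHC2 window it covered the summit itself. In the windows of YPT32, RPL22B and SPT16 it was absent, with the nearest copies 107 bp, 64 bp and 112 bp from the summit.

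For contrast, the same window is shown for the 3 members of highest fold that had no TAGGG within 1000 bp of the summit.
SSB1, chrIV:45789-45889: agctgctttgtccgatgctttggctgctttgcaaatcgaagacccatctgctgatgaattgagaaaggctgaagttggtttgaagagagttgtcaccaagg
YDR524C-B, chrIV:1489599-1489699: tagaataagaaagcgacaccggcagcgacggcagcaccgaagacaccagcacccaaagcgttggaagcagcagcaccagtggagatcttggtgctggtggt
HXK2, chrVII:25253-25353: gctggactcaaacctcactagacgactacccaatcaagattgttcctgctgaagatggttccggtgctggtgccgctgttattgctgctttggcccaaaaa
SSB1 encodes a ribosome-associated Hsp70 chaperone and HXK2 the main hexokinase on glucose. YDR524C-B has no named function in the annotation.

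The enrichment of the members was low. Their fold enrichment of Vid22-13Myc over control, as given by MACS2 at the summit, ran from 1.16 to 3.35 with a median of 1.51 (n = 349). The 462 other peaks ran from 1.21 to 6.98 with a median of 1.82. A −log10 q of at least 9, the threshold read from the study's methods and not applied in the deposited list, was reached by 91 members (26.1%) and by 354 other peaks (76.6%), against 54.9% of all 811 peaks. A fold above 3 was reached by 1 member and by 89 other peaks, against 11.1% of all peaks, and a fold above 2 by 9 members and 162 other peaks. The median width was 527 bp for members (range 317 to 5421) and 444.5 bp for the other peaks (range 316 to 16209). The other peaks fell into the 168 near tRNA genes, with a median width of 352.5 bp, and the 294 outside a CDS, with a median width of 628.5 bp.

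The single member with a fold above 3 lay in RPR2, which encodes a protein subunit of ribonuclease P. Its peak on chromosome IX (381766 to 382727) had a fold of 3.35, a −log10 q of 90.7 and a width of 962 bp. The summit was 402 bp after the start codon in a CDS of 435 bp, 278 bp from the start of the next gene, YIR016W. A TAGGG lay 30 bp and a G4-forming element 7 bp from it.

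The next folds were clearly lower. YER188C-A, an uncharacterized small open reading frame near the right end of chromosome V, had a fold of 2.49. YPT32, a Rab GTPase of the late Golgi, had a fold of 2.17, and AHC2, a subunit of the ADA histone acetyltransferase complex, had a fold of 2.16. RPL22B, a protein of the large ribosomal subunit, had a fold of 2.10 and SPT16, a subunit of the FACT histone chaperone, of 2.09. SSB1 had a fold of 2.02, VRG4, the Golgi GDP-mannose transporter, of 2.01, and UTR5 of 2.01.

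The remaining 11 of the 20 highest members lay between 1.96 and 1.87. They were YDR524C-B (1.96), LIP1 (1.93), RPS17A (1.92), PAC11 (1.90), YDR010C (1.90), ATM1 (1.89), MYO4 (1.88), MZM1 (1.87), HXK2 (1.87), PXP2 (1.87) and SAP4 (1.87). They included a subunit of ceramide synthase (LIP1), the dynein intermediate chain (PAC11), the mitochondrial exporter used in iron-sulphur protein assembly (ATM1) and a type V myosin (MYO4), so no single function ran through the list.

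Of the 10 widest members only YPT32 and VRG4 were also among the 20 of highest fold. YPT32 was the widest at 5421 bp, followed by PAT1 (3723 bp), VRG4 (2927 bp), BAT1 (2909 bp), SIT1 (2813 bp), GAS1 (2451 bp), STE2 (2239 bp), PHO84 (2165 bp), PDC1 (1990 bp) and BAP2 (1950 bp). Their products are known for siderophore import (SIT1), glucan remodelling (GAS1), alpha-factor reception (STE2), phosphate uptake (PHO84), branched-chain amino acid uptake (BAP2), branched-chain amino acid transamination (BAT1) and mRNA decapping (PAT1). PDC1, the main pyruvate decarboxylase, combined a wide peak with a fold of 1.25. In 8 of the 10 the peak covered the whole CDS, while in PAT1 it covered 95.1% and in BAP2 90.9%. Over all members the peak covered a median of 53.6% of the CDS (95% interval of the median 42.4 to 60.0), 53 peaks covered a whole CDS, and 309 overlapped no second protein-coding gene.

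Genes with biased codon use held many of the summits. A codon adaptation index was computed for every gene, with codon weights from the cytosolic ribosomal protein genes, and is a sequence measure that in yeast rises with expression. The members' genes had a median percentile of 87.4 (95% interval 83.0 to 90.8), against 52.6 over all CDS bases. The 10% of genes with the highest index held 158 of the 349 summits (45.3%, 95% Wilson interval 40.1 to 50.5) and 7.3% of the CDS bases. Because the weights came from ribosomal protein genes, these were also left out: 84 of the 275 remaining summits (30.5%, interval 25.4 to 36.2) lay in genes of the top 10%, which hold 6.61% of the remaining CDS bases. The bottom 10% held 21 summits (6.02%) and 5.34% of the bases.

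**Figure D1:**
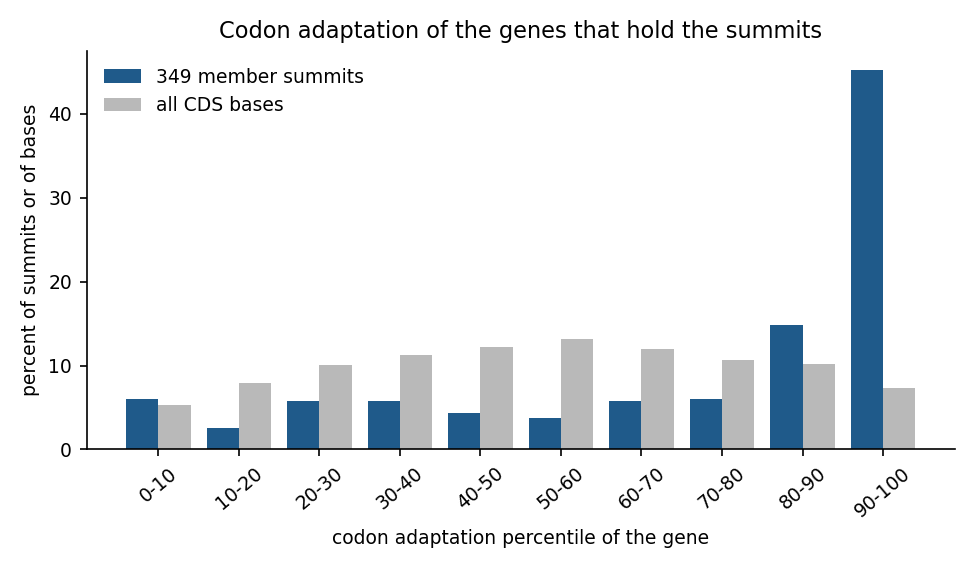
Share of the 349 member summits (dark bars) and of all CDS bases (grey bars) in each band of 10 percentiles of the codon adaptation index. The band from 90 to 100 held 45.3% of the summits and 7.3% of the bases, and the band from 50 to 60 held 3.72% of the summits and 13.2% of the bases.

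Read per gene, 144 of the 600 genes of the top 10% had at least 1 member summit (24.0%), as did 169 of the 5402 other genes (3.13%). Without the ribosomal protein genes, 71 of the 463 remaining top genes had one (15.3%). The difference between top and other genes stood in each band of CDS length, with the ribosomal protein genes kept in. Of the 74 summits in ribosomal protein genes 55 lay in a CDS under 600 bp. Among genes with a CDS under 600 bp the shares were 30.7% of 225 top genes and 3.55% of 1014 others. From 600 to 1200 bp they were 25.4% and 2.38%, from 1200 to 2000 bp 16.9% and 2.88%, and from 2000 bp upwards 11.7% and 4.04%. Transcription was not measured in these samples, and the part of expression in the enrichment was not tested.

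Cytosolic ribosomal protein genes formed the largest group. Of 137 such genes 73 had a member summit (53.3%, interval 45.0 to 61.4), with 74 summits in all, 21.2% of the members in 0.742% of the CDS length. Their folds ran from 1.21 to 2.10 with a median of 1.53, so the enrichment of single genes was modest, and 35 of the 74 reached a −log10 q of 9. The 4 highest were RPL22B (2.10), RPS17A (1.92), RPS12 (1.83) and RPL38 (1.83). The peaks were nearly as long as the genes, with a median of 97.1% of the CDS covered, and 62 of the 74 summits lay between 20 and 80% of the CDS. Only RPL22B and RPL29 had a TAGGG within 100 bp of the summit, 2 of 74 (2.7%, interval 0.744 to 9.33).

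Most ribosomal proteins of yeast are encoded by a pair of near-identical genes, and the pairs and single genes differed. Of 19 single-copy genes 18 had a member summit (94.7%, interval 75.4 to 99.1). The exception was RPL39, which was overlapped by a peak with its summit elsewhere. Of the 118 genes in 59 pairs 55 had one (46.6%, interval 37.9 to 55.6). Both copies had a summit in 18 pairs, 1 copy in 19 and neither in 22. Genes without a member summit were not all free of peaks, since 94 of all 137 were overlapped by some peak of the list. Reads from identical stretches cannot be assigned to 1 copy, and the counts moved with this: a summit was found in 50 of the 88 paired genes of which at least 90% of the 50-mers were unique in the genome (56.8%, interval 46.4 to 66.7) and in 5 of the 30 others (16.7%, interval 7.34 to 33.6). Per the study's methods bowtie was run with -m 1, a setting that discards reads with more than 1 reportable match, so copies with identical stretches could gather fewer reads. How much of the difference between pairs and single genes came from this was not tested.

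Glycolysis and alcoholic fermentation came next, with summits in 11 of 21 genes (52.4%, interval 32.4 to 71.7). They were HXK2, PFK2, FBA1, TPI1, TDH3, PGK1, GPM1, ENO2, CDC19, PDC1 and ADH1. PGI1, the only gene for the step after hexokinase, and PFK1 had no summit, although their 50-mers were all unique. The 4 highest folds were 1.87 in HXK2, 1.50 in GPM1, 1.38 in ENO2 and 1.37 in TDH3, and only HXK2 and GPM1 reached a −log10 q of 9 (16.7 and 9.03). None of these 14 summits lay within 5000 bp of a peak with a fold above 3.

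The other lists had fewer summits. Of 33 cell wall genes 8 had one (24.2%, interval 12.8 to 41.0), with SCW10 (1.71), GAS1 (1.71), CWP2 (1.71) and BGL2 (1.67) highest, and the abundant mannoprotein gene CCW12 had a fold of 1.50. Among 8 core histone genes the copy of histone H3 in HHT1 (1.51) and of H2A in HTA1 (1.42) had one. Of 11 elongation factor genes YEF3 and EFB1 had summits, with highest folds of 1.44 and 1.32. In 4 elongation factor genes without a summit fewer than 50% of the 50-mers were unique. Of 21 chaperone genes 3 had one, SSB1 (2.02), HSC82 (1.35) and SSA2 (1.28).

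Amino acid biosynthesis, with 59 genes, had 6 (10.2%, interval 4.74 to 20.5), among them BAT1 (1.78), ARO2 (1.59), CYS3 (1.46) and ILV2 (1.34). Of 16 proton pump genes only PMA1, the plasma membrane ATPase, had summits, with folds of 1.30 and 1.25. The 19 hexose transporter genes (interval 0 to 16.8%) and the 6 genes of the Vid22 complex and general regulatory factors (0 to 39.0%) had none. Both intervals hold the 5.21% of all protein-coding genes. In 9 of the hexose transporter genes under 90% of the 50-mers were unique, and in 6 under 50%. Of the 6 Vid22 complex and regulatory factor genes, 1 was overlapped by a peak with its summit elsewhere. The 91 Ty retrotransposon genes had none either, but none of them was unique over 90% of its 50-mers, so with reads of several matches discarded a summit there was hardly detectable.

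**Figure D2:**
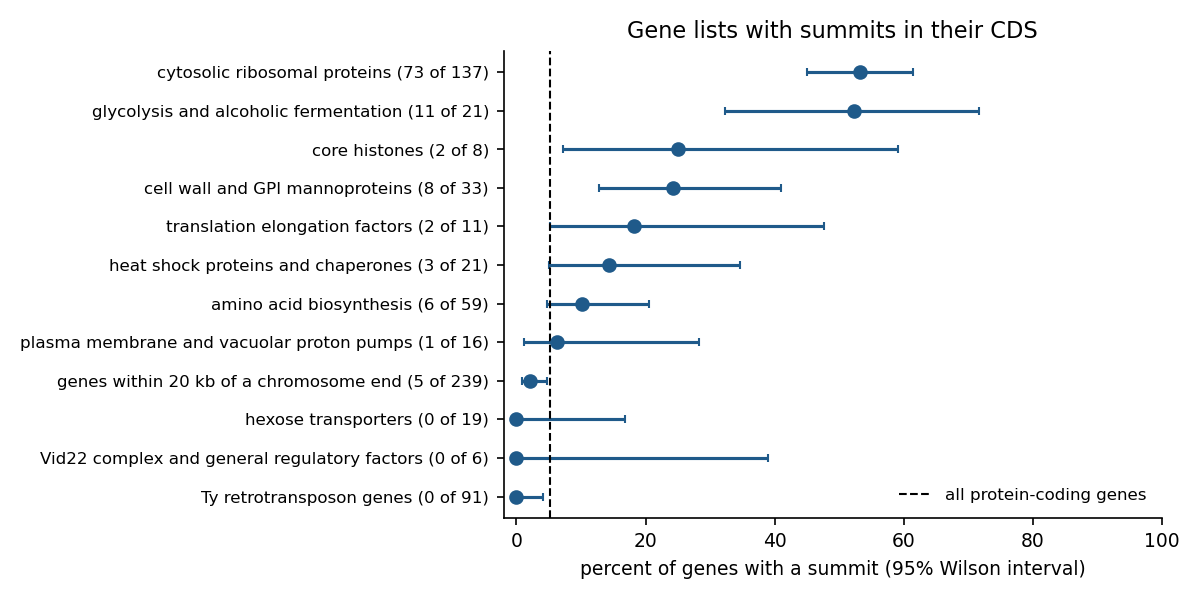
Share of the genes in each list with at least 1 member summit, with 95% Wilson intervals, and the count in brackets. The dashed line is the 5.21% of all protein-coding genes. Ribosomal protein genes (53.3%) and glycolysis (52.4%) stand highest, and hexose transporters, Ty genes and the Vid22 complex list are at 0.

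The second large group lay beside the strongest Vid22 peaks. The list held 90 peaks with a fold above 3, of which all but RPR2 had the summit outside a CDS. A member summit lay within 5000 bp of the edge of such a peak in 127 of 349 cases (36.4%, interval 31.5 to 41.6), against 10.8% of CDS bases. Within 1000 bp there were 44 (12.6%, interval 9.53 to 16.5), against 4.71% of bases. These counts, and the group near strong peaks used below, include RPR2, whose own peak is a strong one. Peaks do not overlap, so a summit within a strong peak other than its own cannot occur, although 3.05% of CDS bases lie there. The members near strong peaks had a median fold of 1.57, against 1.48 for the 222 farther away.

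**Figure D3:**
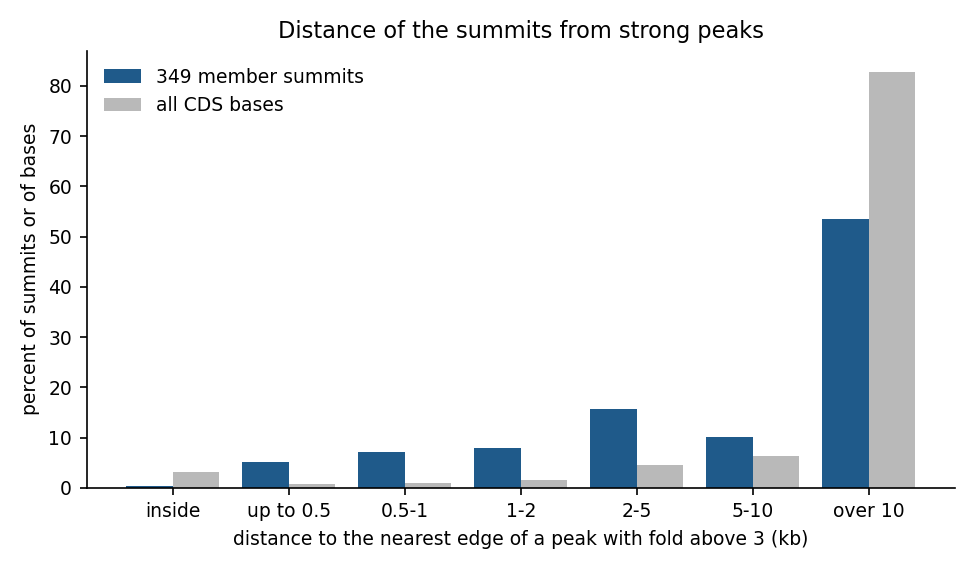
Share of the 349 member summits (dark bars) and of all CDS bases (grey bars) by distance to the edge of the nearest peak with a fold above 3. From 1 to 500 bp away lay 5.16% of the summits and 0.789% of the bases, and over 10 kb away 53.6% of the summits and 82.9% of the bases.

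Members were gathered at some strong peaks. Of the 90 strong peaks 56 had a member within 5000 bp, with RPR2 counted at its own peak, and 21 had at least 3. The peak beside LCB1 on chromosome XIII had 6, in GOT1, JNM1, LIP1, DYN3, ADE4 and ATM1, and the peak beside YME2 on the same chromosome had 6 as well, shared in part with the first. The peak beside CHC1 on chromosome VII (102390 to 110983, fold 6.98) had 5, of which 4 were in SPT16 and 1 in KEX1. Chromosome XIII held 44 members where its CDS length would give 27.7, chromosome XII 47 for 31.3 and chromosome VII 42 for 31.3, while chromosome XIV held 5 for 23.2 and XVI 12 for 27.7. The number of strong peaks did not follow this order in every case: it was 10 on XIII and 1 on XIV, but also 10 on XV, with 28 members for 31.3, 9 on II, with 17 for 24.2, and 1 on I, with 8 for 5.61.

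SPT16 had the most summits of any gene. Their folds were 1.61, 1.56, 1.54 and 2.09 in order from the start codon, and the last, at 95.3% of the CDS, was the nearest to the strong peak, 459 bp from its edge. MYO2, which encodes a type V myosin, had 3 summits with folds of 1.60, 1.84 and 1.56 at 361 bp, 1655 bp and 2245 bp from the peak beside FRT1, so there the fold did not fall steadily with distance. PUF4, an mRNA-binding protein gene near PDR1, had 3 with folds of 1.41, 1.51 and 1.52 at 2770 bp, 2109 bp and 901 bp from the strong peak, so here the fold was lower at each greater distance. YEF3 had 3 as well, with 1.44, 1.31 and 1.26, but no strong peak lay within 47028 bp.

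A further 27 genes had 2 summits. Within 5000 bp of a strong peak for at least 1 summit were ATM1, PPZ1, UBX2, COG1, POL12, SEC23, PSE1, HO and PMA1. Farther away were BMH1, RNR1, ADE57, NOG2, NOP56, ASC1, FET3, GNP1, RPS0B, ALD5, GLY1, IRC7, ENO2, TDH3, VTC4, DBP2, PGK1 and ILV5. The largest fold in these genes was 1.89 in ATM1, and the smallest was 1.16 in ILV5, an enzyme of branched-chain amino acid synthesis. In all 282 other member genes there was 1 summit.

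Both features are set here against the CDS bases that carry them. A gene of the top 10% of codon adaptation with no strong peak within 5000 bp held 143 members (41.0%, against 6.53% of CDS bases), a gene outside the top 10% with a strong peak within 5000 bp held 112 (32.1%, against 9.96%), both features applied to 15 (4.30%, interval 2.62 to 6.97, against 0.773%) and neither to 79 (22.6%, against 82.7%). The 79 with neither had a median fold of 1.49 and a median width of 440 bp, and 17 of them lay in the lowest 10% of codon adaptation. Several of these were small open reading frames beside other genes, such as UTR5, 382 bp from the top 10% gene HYP2. Only 5 of the 79 (6.33%, interval 2.73 to 14.0) had a top 10% gene within 500 bp of the summit. Over all members such a gene lay within 500 bp of the summit, or held it, in 166 (47.6%), against 8.51% of CDS bases. It held the summit in 158 of these 166 members. Of the 294 other peaks outside a CDS, 63 had such a gene within 500 bp (21.4%, interval 17.1 to 26.5). The same was true of 53 of the 205 of these with a fold of at most 3 (25.9%, interval 20.3 to 32.3).

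The annotation called the product uncharacterized for 14 members (4.01%). The share of such genes among all protein-coding genes was not set beside this, so the count shows neither an excess nor a lack of them. The median CDS length of the 14 was 333 bp, and the longest CDS, that of YGL230C, had 444 bp. A summit in so short a CDS must lie within 500 bp of its own gene start. That all 14 did is therefore not a result. The median fold of the 14 was 1.67. The highest were YER188C-A (2.49), YDR524C-B (1.96), YDR010C (1.90), YCR025C (1.79) and YJR107C-A (1.69).

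Along the gene, the summits lay towards the 3′ end. The median position was 57.3% of the CDS from start to stop codon (95% interval 52.4 to 62.2), and 244 of 349 summits (69.9%, interval 64.9 to 74.5) lay in the last 60% of the CDS, against 60% of CDS bases. In bands of 10% the counts from the start codon were 27, 24, 28, 26, 41, 40, 40, 41, 41 and 41, where an even spread would give 34.9 in each. The first 4 bands were thus each below and the last 6 each above it. That even spread also counts CDS bases under peaks with a summit outside a CDS, where no member summit can lie.

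The shape differed between the groups. The median position was 51.4% (interval 46.6 to 56.4) in the 143 members in top 10% genes away from strong peaks. It was 63.3% (interval 54.1 to 73.8) in the 127 members near strong peaks and 63.8% (interval 50.4 to 73.9) in the 79 others. The 143 members in top 10% genes away from strong peaks were most frequent at mid-gene, with 111 (77.6%, interval 70.1 to 83.7) between 20 and 80% of the CDS. Of the 127 members near strong peaks 65 (51.2%, interval 42.6 to 59.7) lay there, and their counts were highest in the last band, with 20. The CDS was shorter in the first of these groups, with a median of 666 bp, than in the members near strong peaks, with 1617 bp. The median peak width was 543 bp in the first group and 583 bp near strong peaks, so peaks spanned more of the CDS in the first. The part of CDS length and peak width in the position was not tested.

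**Figure D4:**
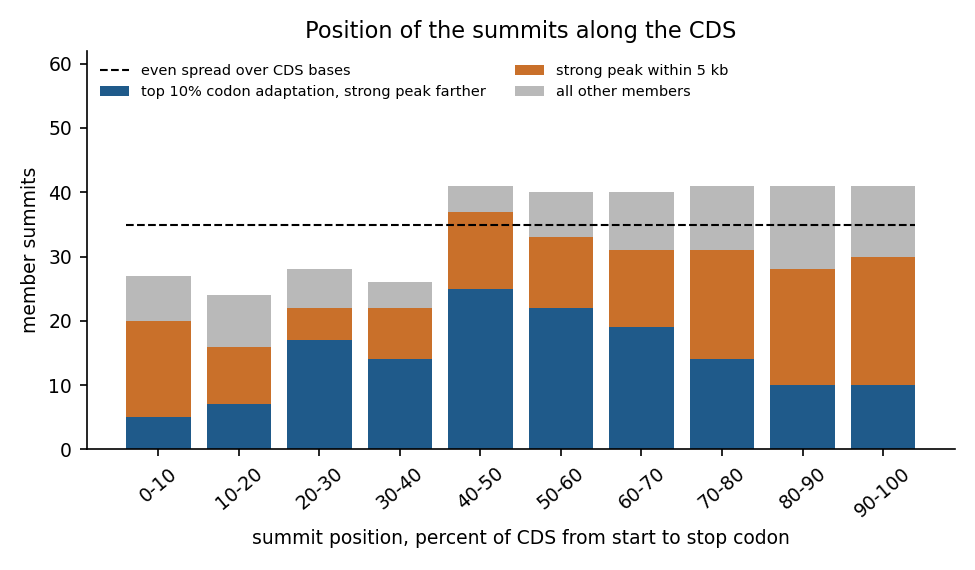
Number of member summits in each band of 10% of the CDS, from start codon (left) to stop codon (right), stacked by group. Dark segments are top 10% codon adaptation genes with no strong peak within 5 kb (143), orange are members with a strong peak within 5 kb (127), grey the 79 others, and the dashed line marks the 34.9 of an even spread.

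Many summits were still close to a gene start, counting starts of all annotated genes. Of 349 members 185 lay within 500 bp of one (53.0%, interval 47.8 to 58.2), against 35.2% of CDS bases and against 394 of the 462 other peaks (85.3%). The start was that of the host gene in 152 cases and of a different gene alone in 33. Host genes of the members had a median CDS of 1062 bp, against 1902 bp for the gene of a median CDS base, so summits in short genes were necessarily near a start. An annotated non-coding RNA gene other than a tRNA lay within 250 bp of 8 members (2.29%), against 0.293% of bases. Within 20 kb of a chromosome end lay 6 members (1.72%, interval 0.790 to 3.70), in DLD3, YER188C-A, IRC7, ADH6 and FET4, against 3.56% of bases. In 137 of the 239 genes there under 90% of the 50-mers were unique, and reads of several matches were discarded. The part of this in the lower share was not tested.

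The Tbf1 consensus was not frequent at these summits. A TAGGG lay within 100 bp of 38 members (10.9%, interval 8.04 to 14.6), against 14.4% of CDS bases, and within 50 bp of 27 (7.74%, interval 5.37 to 11.0), against 7.68% of bases. Of the other peaks 175 of 462 had it within 100 bp (37.9%, interval 33.6 to 42.4). The share was 49.0% of the 294 outside a CDS, or 29.3% (interval 23.5 to 35.8) of the 205 of these whose fold did not exceed 3, and 18.5% of those near tRNA genes. The median distance from the summit was 582 bp in members (interval 518 to 668), 229.5 bp in other peaks and 460 bp over CDS bases. The longer TTAGGG was within 100 bp of 10 members (2.87%, interval 1.56 to 5.19), against 94 other peaks (20.3%) and 4.63% of bases.

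**Figure D5:**
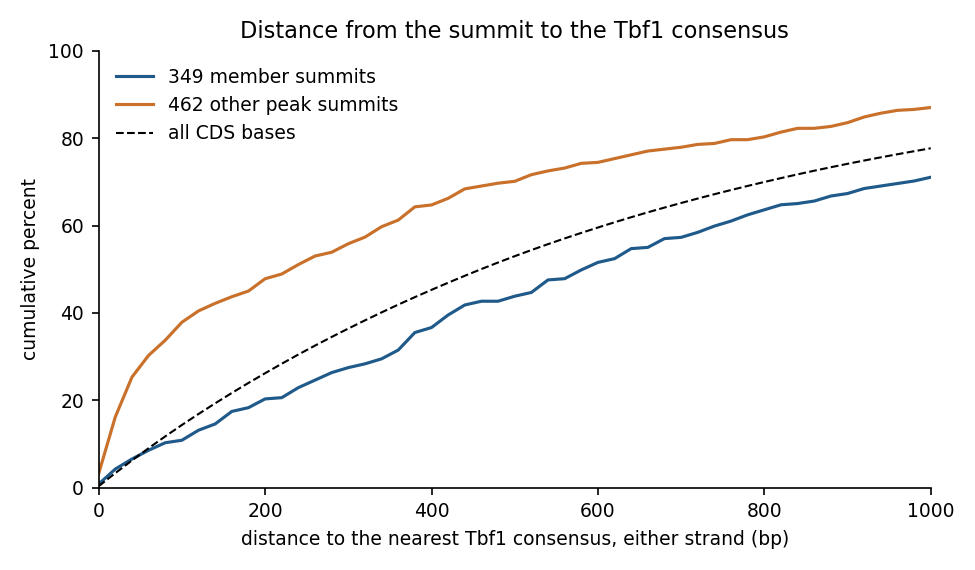
Cumulative share of summits by distance to the nearest Tbf1 consensus on either strand, for the 349 members, the 462 other peaks and, dashed, all CDS bases. At 100 bp the curves stand at 10.9% for members, 37.9% for other peaks and 14.4% for bases.

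The 38 members with a TAGGG within 100 bp had a median fold of 1.56 and the 311 without it 1.51. They included 4 of the 9 members with a fold above 2, namely RPR2, YER188C-A, AHC2 and RPL22B. In AHC2, GPI16 and ECM32 the summit base was inside the consensus. By group, it was found near 10 of the 143 in top 10% genes away from strong peaks (6.99%, interval 3.84 to 12.4), 17 of the 127 near strong peaks (13.4%, interval 8.53 to 20.4) and 11 of the 79 with neither feature (13.9%, interval 7.96 to 23.2).

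Of the members with a −log10 q of at least 9, 15 of 91 had the consensus within 100 bp (16.5%, interval 10.3 to 25.4). Codon use and base composition also differ between these genes, and GC content within 100 bp of the summit had a median of 42.3% in members, 39.6% in other peaks and 39.3% over CDS bases. Its part in the motif counts was not tested.

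Of other elements, the Reb1 site TTACCCG, searched on both strands, lay within 100 bp of 2 members (0.573%) and of 0.491% of CDS bases. A G4-forming element, written as 4 runs of at least 3 guanines with loops of 1 to 25 bases on either strand, lay within 200 bp of 11 members (3.15%, interval 1.77 to 5.55), against 62 other peaks (13.4%, interval 10.6 to 16.8) and 1.83% of CDS bases. The 11 members were RPR2, YPT32, PAC11, AVT2, MEO1, YJL027C, TVP38, YEL008W, BAP2, ECM32 and USA1. None of the 143 in top 10% genes away from strong peaks was among them, a count of 0 that allows a share of up to 2.10% (3 counts of the total).

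Of a short list of 9 genes at or near loci of interest to the study, which is not every gene it names, 3 held a member. SET5, a histone methyltransferase gene near SKN7, had a summit at 73.4% of its CDS with a fold of 1.55, 688 bp from the strong peak beside SKN7. GCN4, the transcription factor of amino acid starvation, had a fold of 1.52 and a −log10 q of 10.7 at 80.8% of its CDS. PRB1, the vacuolar protease B gene, had a fold of 1.70 at 80.0% of its CDS, 1086 bp from a strong peak. HHT2, SKN7, CAN1, VID22, ENV11 and TBF1 had no member summit. A peak of the list with its summit outside their CDS did overlap SKN7, CAN1 and TBF1.

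The distance from tRNA genes removed 2 peaks with a summit in a CDS. YGR164W, 10 bp from a tRNA gene, had a fold of 1.80, and YOR072W-B, whose summit was within one, had 2.09. The nearest members on the other side of the limit were GCN4 at 343 bp, YJL027C at 783 bp with a fold of 1.60 and RPL30 at 1154 bp with a fold of 1.40.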

How the data were processed

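Per the labels and methods, anti-MYC chromatin from Vid22-13Myc cells and a control library were sequenced as 50 bp reads. The control's label gives no antibody, while the methods describe an untagged strain as negative control. The authors aligned them with bowtie to sacCer3, with -m 1 so that reads of several matches were dropped, removed duplicates with samtools and called peaks with MACS2 on the pooled library against control (versions not given in the sources used here). The deposited list gives per peak a score, a fold enrichment (ratio), −log10 p and −log10 q values and the summit offset. The members and gene lists were chosen with earlier results of these data known. Summits were placed on the RefSeq annotation of R64, the same assembly, with Python 3.11.15, numpy 2.4.6, pandas 2.3.3 and scipy 1.17.1. Distances, codon adaptation and 50-mer uniqueness were computed for summits and for each of the 8716154 CDS bases over 250 bp from a tRNA gene. The placement code was checked against a plain search at 200 drawn CDS bases of the reference. Shares carry 95% Wilson intervals and medians 95% order-statistic intervals. There was 1 library per condition, so no group test was made and the depth is unknown. Genes named were the 20 members of highest fold, the 10 widest, genes with several summits, the 4 highest of each list, a short list of 9 genes at or near loci of the study and the 3 peaks on each side of the tRNA limit (only 2 lay outside). Others were named after their values were seen. Alternatives varied the q-value, the tRNA limit, the summit, the gene set, the motif and the distance to strong peaks.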

Additional observations from a re-analysis of the deposited data

How the results depend on the processing

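The 349 summits became 351 with no tRNA limit, 347 with a limit of 1000 bp, 343 without Ty genes and genes near chromosome ends, and 373 when the peak midpoint was used. A −log10 q of at least 9 left 91 and one of at least 20 left 12. At 9, TAGGG within 100 bp was at 16.5%, the median width at 720 bp, summits within 500 bp of a gene start at 64.8%, ribosomal protein genes with a summit at 25.5% and the median codon adaptation percentile at 93.4. At 20 these were 25.0%, 956.5 bp, 75.0%, 2.92% and 75.4, and 25.0% lay within 5000 bp of a strong peak. The share of ribosomal protein genes is taken over all such genes and falls as fewer summits are left. Counted over members, these genes held 74 of 349, 35 of the 91 at 9 and 4 of the 12 at 20. With the midpoint, the median position was 52.3%, ribosomal protein genes with a summit 44.5%, the median codon adaptation percentile 82.5 and the share within 5000 bp of a strong peak 43.4%. The TAGGG share was 7.74% within 50 bp, 20.3% within 200 bp and 2.87% for TTAGGG. Members over 500 bp from a gene start had a median position of 68.9% and a median width of 606 bp. That limit removes summits in the first 500 bp of every gene, so the later position is set in part by the limit and is not a result. Chosen after seeing the data were the distance to strong peaks and its alternatives: within 2000 bp lay 20.6% of the members, and the 222 members over 5000 bp away had 60.4% within 500 bp of a gene start and a median codon adaptation percentile of 95.7. The causes were not tested. The other settings moved each value by less than its 95% interval. No paired analysis was possible because each condition had 1 library. Without replicates or read depth, no member's enrichment has an error of its own.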

Other observations

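A smaller group was noticed only after the values were seen, and so carries no test. Of the 5 genes of the vacuolar transporter chaperone complex, which makes polyphosphate, VTC1, VTC3 and VTC4 (3 of 5, against 5.21% of all protein-coding genes) held 4 summits with folds between 1.30 and 1.63, and the phosphate transporter gene PHO84 had a peak over its whole CDS with a fold of 1.47.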
